A study of Bos taurus and Bos indicus x Bos taurus with 938 samples.

Results

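In cattle embryos, open chromatin was called by ATAC-seq one blastomere at a time. The embryos came from nuclear transfer (SCNT), where an enucleated oocyte receives a somatic nucleus, or from in vitro fertilisation (IVF). The regions described here were selected on measured open shares: they were open in at least 15% of IVF 8-cell blastomeres and in over 3% of IVF 2-cell blastomeres, but in at most 3% of SCNT 8-cell blastomeres. Of the regions V1 to V294500, to which these thresholds were applied, 2744 met all of them (0.932%) and are called members below. They made up 14.2% of the 19257 regions that met both IVF thresholds, and the remaining 16513, open in over 3% of SCNT 8-cell blastomeres, served for comparison as the other IVF-open regions. The members had been proposed as IVF regions that SCNT embryos did not open. Values of the SCNT 12- and 14-cell embryos went against that name, so the members are called here by their thresholds alone.

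The table held 421 SCNT blastomeres, labelled Bos taurus, and 398 IVF blastomeres, labelled Bos indicus x Bos taurus. Per the labels, both types used oocytes from abattoir ovaries matured in vitro, and every embryo was taken apart so that each blastomere gave its own library. Semen of the IVF embryos came from a cryopreserved straw, and what donor cells the SCNT embryos had is not given in the sources used. With SCNT given first, there were 43 and 67 embryos at the 2-cell stage, 25 and 22 at the 4-cell stage, 13 and 10 at the 5- to 7-cell stages, 21 and 14 at the 8-cell stage, and 6 and 3 at the 12- to 16-cell stages. Embryos are named by type and number below (SCNT-65), and blastomeres by a letter after it. The replicate was the embryo, and percentages by embryo are given for those with at least 1000 open calls.

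Newly made embryos depend on RNA and protein stored in the oocyte until their own genome is switched on, and in cattle the main wave of this activation falls around the 8-cell stage. Sites that bind transcription factors become accessible around that time, and ATAC-seq marks such sites because the Tn5 transposase inserts into DNA that nucleosomes leave free. After nuclear transfer, chromatin of the somatic nucleus has to be remodelled towards the embryonic state, and this remodelling is known to be incomplete at some sites.

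Each value of the table is an open or closed call, and a blastomere had a median of 8221 open calls and at most 129163. The regions carry running numbers with no position and no gene, so the members cannot be tied to promoters, genes or sequence here. Columns were linked to libraries through their numbers, which is an inference stated nowhere in the sources used. SCNT libraries have the title prefixes 15243 and 15244 and IVF libraries 15286 and 15287, so that embryo type, prefix and labelled breed cannot be told apart. A stretch of the region numbering was nearly empty of calls in many IVF and few SCNT blastomeres, at the 4-cell stage in 4 of 58 assessed SCNT and 29 of 62 assessed IVF blastomeres, and at the 8-cell stage in 0% of assessed SCNT blastomeres, which allows up to 2.42%, and in 23.6% of 89 assessed IVF blastomeres. Results without these blastomeres are given beside the region tests they touch.

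The values that selected the members are given as a description. Over the members, the share of SCNT 8-cell blastomeres in which a member was open had a median of 2.07%, with 4.37% of members at 0, a count that allows a share of up to 2.07%. The median share was 18.4% in IVF 8-cell blastomeres, with a highest value of 54.4%, and 6.20% in IVF 2-cell blastomeres. A member was open in a median of 9 of the 14 IVF 8-cell embryos and in at least 4 of them. Of the 3043 regions open in at least 50% of embryos, 0 were members, which follows in part from the cap of 3% in SCNT 8-cell blastomeres. Just inside the thresholds lay members at 15.5% of IVF 8-cell, 3.10% of IVF 2-cell and 2.76% of SCNT 8-cell blastomeres. Just outside, and meeting the other thresholds, lay regions at 14.6% of IVF 8-cell, 397 at 2.33% of IVF 2-cell and 964 at 3.45% of SCNT 8-cell blastomeres. V249, with 4 calls in 4 SCNT 8-cell embryos and 17 calls in 10 IVF 8-cell embryos, lay just inside, while V13, with 5 and 16 calls, lay just outside.

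**Figure D1:**
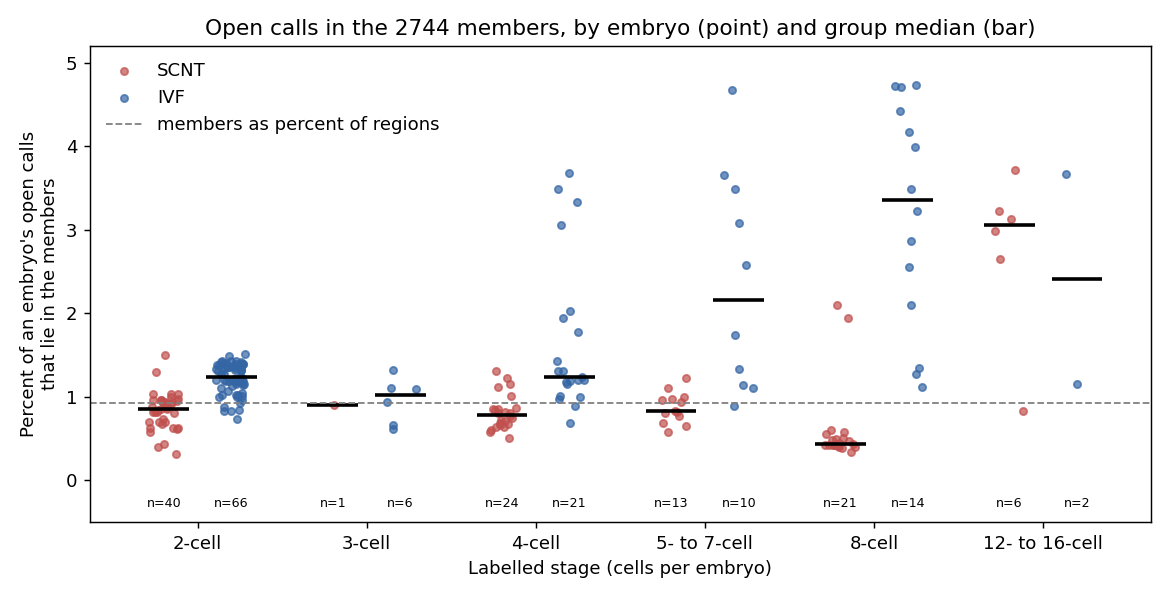
Percent of each embryo's open calls that lay in the members (y axis) by labelled stage (x axis), with SCNT left of IVF, 1 point per embryo with at least 1000 calls and a bar at the group median. The dashed line marks the 0.932% of regions that are members. Medians of 0.436% in SCNT and 3.36% in IVF 8-cell embryos follow in part from the thresholds, and 5 of the 6 SCNT embryos of 12 to 16 cells lie above 2.5%.

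To compare embryos of unequal depth, the calls in members were taken as a percent of all calls of the embryo in V1 to V294500. At the 8-cell stage, on which the members were selected, the percent was lowest at 0.345%, with a median of 0.436% and a highest value of 2.10% in SCNT embryos, against 1.11%, 3.36% and 4.73% in IVF embryos. The SCNT embryos were not alike. Embryos SCNT-65 and SCNT-115 had 2.10% and 1.94%, and the other 19 lay between 0.345% and 0.608%, all below the lowest IVF embryo. Those 2 embryos held 9.0% of the SCNT 8-cell blastomeres and 40.1% of the 7517 member calls in this group. In embryo SCNT-65 every blastomere was high, from 1.86% to 2.27%. Embryo SCNT-115 was mixed, with a highest blastomere at 2.60%, while SCNT-115B had 33 member calls among 7043 (0.469%) and the shallow SCNT-115A and SCNT-115H had 1 among 843 and 6 among 3082. Within prefix 15243 the 12 SCNT 8-cell embryos lay between 0.345% and 0.608%, and both high embryos had prefix 15244.

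IVF 8-cell embryos also varied. Of the 14, 10 had over 2.5% of their calls in members, and 3 lay between 1.11% and 1.35%, below the 2 high SCNT embryos. The lowest, embryo IVF-615, was shallow, with a median of 2364 calls per blastomere. Embryos IVF-526 and IVF-619 were low at medians of 8963 and 11517 calls per blastomere. The percent lay below the members' 0.932% of regions in 19 of the 21 SCNT 8-cell embryos and above it in all 14 IVF 8-cell embryos.

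Embryos beyond the 8-cell stage were not used in selecting the members, and in 5 of 6 SCNT embryos of 12 to 16 cells the percent of calls in members was above that of every SCNT 8-cell embryo. The percent was 2.65% and 2.99% in the 12-cell embryos SCNT-67 and SCNT-114, and 3.13%, 3.22% and 3.72% in the 14-cell embryos SCNT-113, SCNT-64 and SCNT-112. It was 0.832% in the 16-cell embryo SCNT-111 (exact 95% binomial interval 0.790 to 0.875, counting error only). Among IVF embryos, the 13-cell embryo IVF-613 had 3.67% and the 16-cell embryo IVF-617, with 3 blastomeres in the table, had 1.15% (1.05 to 1.27). Both 16-cell embryos were thus low and every embryo of 12 to 14 cells was high, but each type had 1 embryo of 16 cells with at least 1000 calls. Over all 6 SCNT embryos the mean was 2.76% ± 1.01 (SD, n = 6), against 0.874% ± 0.185 (SD, n = 13) in SCNT 5- to 7-cell embryos. All SCNT embryos beyond 8 cells had prefix 15244, and within that prefix the 9 SCNT 5- to 7-cell embryos had 0.822% ± 0.143 (SD).

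**Figure D2:**
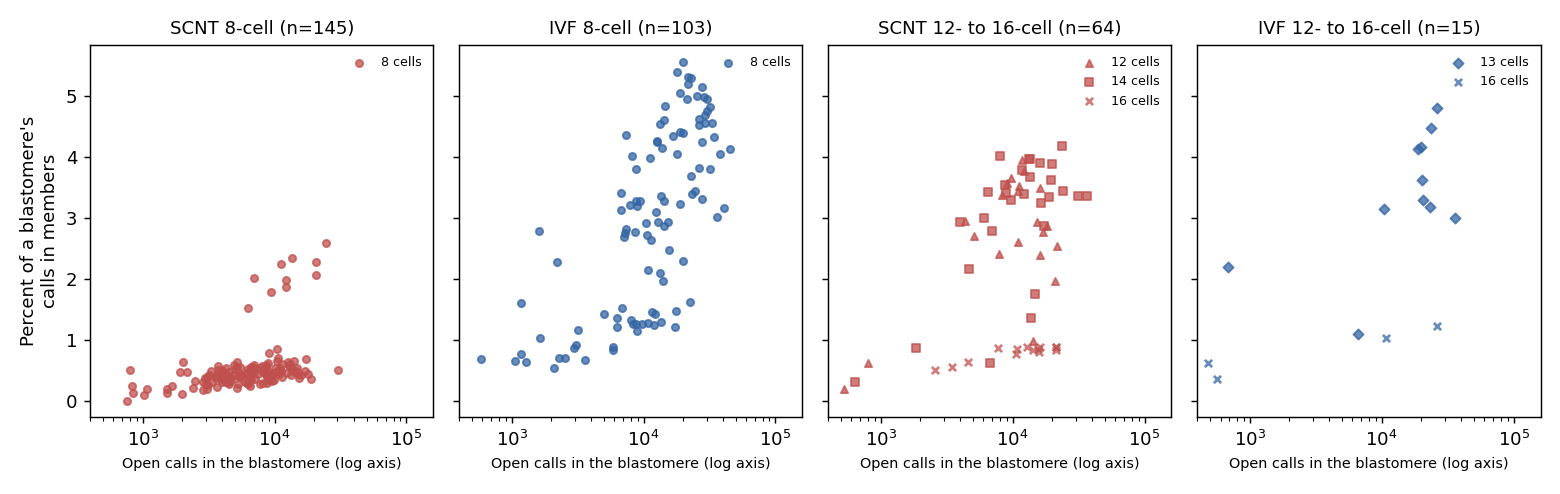
Percent of each blastomere's open calls that lay in members (y axis) against its number of open calls (x axis, log scale), 1 point per blastomere, by type and stage. Marker shape gives the labelled cell number. At 5000 calls or more, SCNT 8-cell blastomeres have a median of 0.477% and SCNT 12- to 16-cell blastomeres one of 3.12%, while the 16-cell blastomeres lie low at the same depths.

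The percent also moved with depth, and shallow blastomeres had more of their calls in the 3043 regions open in at least 50% of embryos, with a median of 51.7% in SCNT 8-cell blastomeres under 2000 calls and 16.2% in those with 5000 or more. Among blastomeres under 2000 calls, the median percent of calls in members was 0.190% in 10 SCNT 8-cell blastomeres and 0.763% in 7 IVF 8-cell blastomeres. At 5000 calls or more it was 0.477% in 96 SCNT 8-cell and 3.31% in 87 IVF 8-cell blastomeres, and 3.12% in 54 SCNT 12- to 16-cell blastomeres. The median depth was 6868 calls in SCNT and 12820 in IVF 8-cell blastomeres, and 12150 in SCNT 12- to 16-cell blastomeres. With every blastomere thinned to 1000 calls, the percent of calls divided by the members' percent of regions averaged 0.594 in SCNT 8-cell, 3.17 in SCNT 12-cell, 3.40 in SCNT 14-cell and 3.08 in IVF 8-cell embryos. Unthinned it averaged 0.650, 3.02, 3.60 and 3.43 in the same groups, so the order of SCNT 12-cell and IVF 8-cell embryos changed with thinning and that of SCNT 8-cell embryos, the lowest, did not. Within the high SCNT embryos a few deep blastomeres were low. In members lay 1.36% of the 13865 calls of SCNT-113H, 1.74% of the 14740 of SCNT-113C, 0.984% of the 14328 of SCNT-114L and 0.610% of the 6719 of SCNT-64A. The 8-cell embryo IVF-584 likewise ranged from 0.837% in IVF-584A, with 5857 calls, to 4.84%. Sister blastomeres of 1 embryo thus spanned the values that separated embryos.

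Region by region, a member was open in a mean of 12.1% of the 64 SCNT blastomeres of 12 to 16 cells, against 3.23% of the 61 SCNT blastomeres of 5 to 7 cells. The mean over all regions was 4.30% in the first group and 3.28% in the second. In 835 members (30.4%) the share reached at least 15% of the SCNT 12- to 16-cell blastomeres, and in 23 (0.838%) no call was made there, which allows a share of up to 4.69%. The 15% was reached by 79.3% of the other IVF-open regions and 6.25% of all regions, so the members lay between these sets. Without the 16-cell embryo, which was set aside after its value had been seen, 42.3% of the members, 78.04% of the other IVF-open regions and 6.63% of all regions reached 15%. In 50 blastomeres 31 members (1.13%) then had no call, beside 0.267% of the other IVF-open regions and 40.4% of all regions. The mean share over members was then 14.4%, against 19.8% in IVF 8-cell blastomeres, where the rule set it to at least 15% for each member. Members open more often in the SCNT 12- and 14-cell embryos were also open more often in the other groups examined, among them the 13-cell embryo IVF-613. Without the 16-cell embryo, the 307 members under 5% had a mean share of 15.7% in that embryo, and those from 5% to 10%, 10% to 15%, 15% to 25% and at 25% or more had 19.4%, 23.3%, 28.8% and 37.3%. In IVF 8-cell blastomeres, where the threshold bounds the share from below, the lowest band had 17.7% and the 317 members of the highest band 24.5%. The same 2 bands had 3.07% and 4.57% in the low 16-cell embryo SCNT-111. In SCNT 8-cell blastomeres, bounded from above, they had 1.61% and 2.19%. The rise is thus not particular to IVF embryos, and other sets of regions were not split in this way. Of all members, 1 had no call in any of the 421 SCNT blastomeres.

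**Figure D3:**
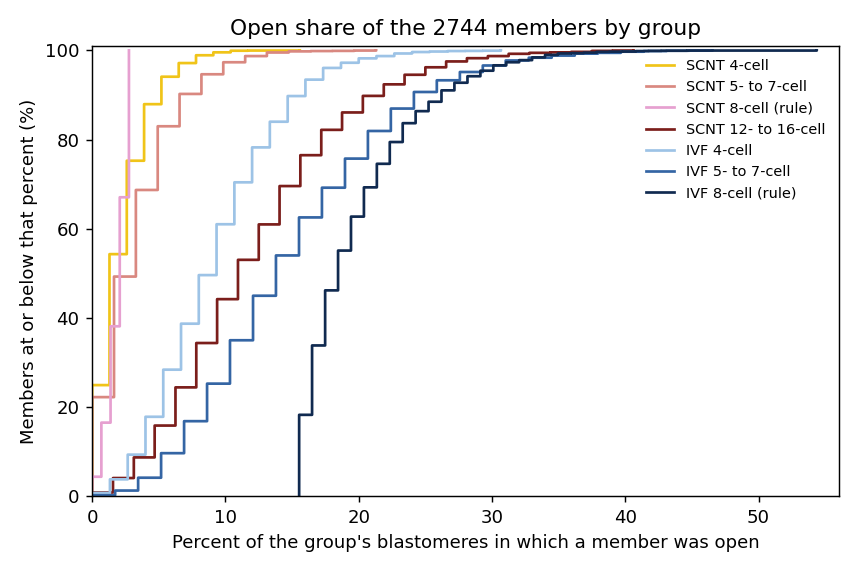
Cumulative percent of the 2744 members (y axis) with an open share at or below the value on the x axis, the percent of the group's blastomeres in which the member was open, 1 line per group. The SCNT 8-cell and IVF 8-cell lines are bounded by the thresholds of 3% and 15%. The SCNT 12- to 16-cell line runs between those of IVF 4-cell and IVF 5- to 7-cell blastomeres over most of the axis, and the SCNT 4-cell and 5- to 7-cell lines stay at low shares.

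The SCNT 12- to 16-cell embryos were then compared with the SCNT 5- to 7-cell embryos by the region test, a comparison added after the values by embryo had been seen. The test sets the calls of each embryo against those expected from the depth of its blastomeres and the openness of the region. Over all members, observed calls were 1.44 times the expected number in the 12- to 16-cell embryos and 0.508 times in the 5- to 7-cell embryos. Observed over expected was higher at 12 to 16 cells in 2349 of the 2744 members (85.6%), against 74.9% of the other IVF-open regions and 39.8% of all regions. No single member passed: with Benjamini-Hochberg adjustment in the quasi-Poisson test, 0 of 2707 members tested and 0% of all 198536 regions tested were higher. At an unadjusted p under 0.05, 26.1% of the members tested were higher, beside a background of 3.53% of all regions tested. Lower were 10 members (0.369%), beside 2.705% of all regions tested. Leaving out each 12- to 16-cell embryo in turn gave 18.8% to 30.4% of all members higher, beside 2.87% to 4.43% of all regions tested, both highest without SCNT-111. With all 6 embryos it was 25.8% of all members. Within prefix 15244 it was 18.2% of the members tested, beside 2.52% of all regions tested.

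V262336 had 25 calls over all 6 SCNT 12- to 16-cell embryos and 0 in 61 SCNT blastomeres of 5 to 7 cells, a count that allows up to 4.92% (quasi-Poisson test, unadjusted p = 4.81e-05, adjusted p = 0.195). V71418 had 24 calls over 6 embryos against 0, and V151363 had 21 over 6 embryos against 0. In IVF 8-cell blastomeres these regions had 31, 29 and 24 calls. V157256 had 24 SCNT calls in 5 of the 12- to 16-cell embryos and 0 at 5 to 7 cells, and V157253, 3 numbers away, had 11 in 4 embryos and 1. V82407 went the other way, with 0 calls in 64 SCNT blastomeres of 12 to 16 cells and 7 calls in 4 SCNT 5- to 7-cell embryos (adjusted p = 0.370 in the same test). It also had 0 calls in 15 IVF blastomeres of 13 and 16 cells and 16 calls in 6 IVF 8-cell embryos. V129883 had 0 and 6 SCNT calls in these groups.

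Before the 8-cell stage, the members were open less often in SCNT than in IVF embryos, in groups that were not used to select them. At the 4-cell stage the percent of calls in members had a lowest value of 0.510%, a median of 0.789% and a highest value of 1.30% in 24 SCNT embryos, against 0.684%, 1.24% and 3.68% in 21 IVF embryos. Depth, with which the percent moved, was unequal, at a median of 4194 calls in SCNT and 7590 in IVF 4-cell blastomeres. The groups overlapped, with 9 of the 21 IVF embryos above the highest SCNT embryo. The IVF distribution had an upper tail of embryos IVF-517, IVF-552, IVF-588 and IVF-518, at 3.68%, 3.49%, 3.33% and 3.05%, levels otherwise seen at 6 cells and beyond. Within prefixes 15243 and 15286 22 SCNT embryos had a mean of 0.826% ± 0.216 and 16 IVF embryos one of 1.57% ± 0.795 (SD).

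Over all members, observed calls were 0.519 times the expected number in SCNT and 1.04 times in IVF 4-cell embryos. Observed over expected was lower in SCNT in 2214 members (80.7%), against 59.4% of the other IVF-open regions and 46.7% of all regions. In the quasi-Poisson test with Benjamini-Hochberg adjustment, 0 of 2097 members tested were lower in SCNT, beside 0% of the 97252 regions tested. At an unadjusted p under 0.05, 5.34% of the members tested were lower, beside 1.77% of all regions tested. Higher were 4 members (0.191%), beside 2.34% of all regions tested. Without the blastomeres that lacked a stretch 82 members were lower (8.14% of those tested), beside 3.87% of all regions tested, and 0 with adjustment. The smallest p belonged to V293617, with 1 call in 77 SCNT blastomeres and 23 calls over 15 embryos in 75 IVF blastomeres (log2 ratio -3.56 ± 1.47 SE, quasi-Poisson test, adjusted p = 0.616). V100164 had 2 calls in 1 SCNT embryo and 23 in 11 IVF embryos. V286102 had 0 SCNT calls, which allows up to 3.90%, and 16 calls in 10 IVF embryos. Observed over expected was higher in SCNT in 19.1% of the members, among them V55258, with 12 calls in 8 embryos against 8 in 7 IVF embryos. V103222 had 5 calls in 4 SCNT embryos against 1 in IVF.

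At the 5- to 7-cell stages the distance between the types was wider. The percent of calls in members had a lowest value of 0.583%, a median of 0.832% and a highest value of 1.23% in 13 SCNT embryos, against 0.892%, 2.16% and 4.67% in 10 IVF embryos. Depth was again unequal, at a median of 6749 calls in SCNT and 11230 in IVF blastomeres of 5 to 7 cells. Of the IVF embryos, 7 lay above every SCNT embryo and 5 exceeded 2.5%, while no SCNT embryo did. By cell number, the mean was 0.958% ± 0.216 in 5 SCNT and 1.02% ± 0.177 in 2 IVF embryos of 5 cells (SD). At 6 cells it was 0.837% ± 0.167 in 5 SCNT and 2.40% ± 1.14 in 6 IVF embryos, and at 7 cells 0.792% ± 0.156 in 3 SCNT and 3.63% ± 1.48 in 2 IVF embryos (SD). The 5-cell means thus lay within 1 SD of each other, and the IVF values at 6 cells ran from 1.11% to 3.65%.

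Over all members, observed calls were 0.508 times the expected number in SCNT and 1.58 times in IVF 5- to 7-cell embryos, and observed over expected was lower in SCNT in 2510 members (91.5%). The same held for 70.9% of the other IVF-open regions and 43.1% of all regions. In the quasi-Poisson test with Benjamini-Hochberg adjustment 0 of 2580 members tested passed, beside 0% of the 149440 regions tested. At an unadjusted p under 0.05, 747 members (28.95% of those tested) were lower in SCNT and 0 were higher, beside 3.4% of all regions tested lower and 3.1% higher. With 6-cell embryos only the count was 24 (0.966%), beside 0.201% of all regions tested. Without the 7-cell embryo IVF-620, the highest of the group, it was 418 (17.2%), beside 2.30%. Leaving out each IVF embryo in turn gave 418 to 763, beside 2.30% to 3.90% of all regions tested. Without the blastomeres that lacked a stretch 25.8% of 2389 members tested were lower, beside 3.36% of all regions tested, and 0 with adjustment.

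**Figure D4:**
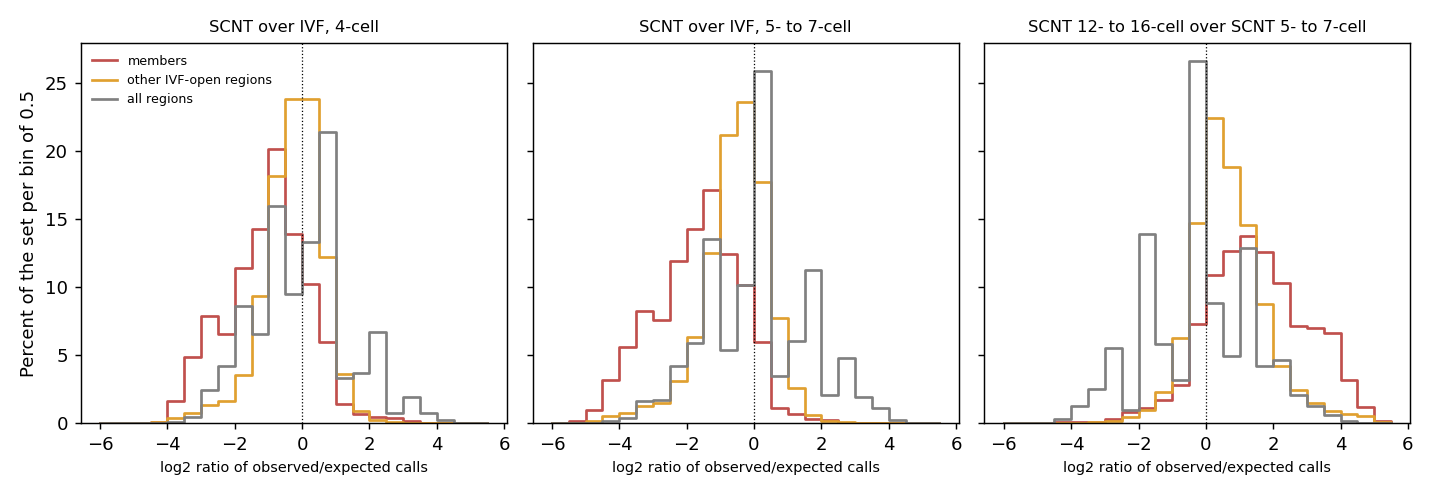
Log2 ratio of observed over expected calls (x axis, pseudocount 0.5 in calls and in expected calls) and the percent of each set of regions per bin of 0.5 (y axis), for members, the other IVF-open regions and all regions. Members lie to the left in SCNT over IVF at 4 cells and at 5 to 7 cells, with medians of -0.94 and -1.62, and to the right in SCNT 12- to 16-cell over SCNT 5- to 7-cell embryos, with a median of 1.46. Separate peaks for all regions come from counts of 0 and 1.

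V174988 had 0 calls in 61 SCNT blastomeres of 5 to 7 cells and 25 calls in 7 IVF embryos of those stages (unadjusted p = 0.000139, adjusted p = 0.443 in the quasi-Poisson test). V171393 had 0 SCNT calls and 25 in 5 IVF embryos, and V285689 and V277664 had 0 SCNT calls and 23 in 7 IVF embryos each. In the SCNT 12- to 16-cell embryos these 4 regions differed among themselves, with 3, 11, 13 and 5 calls. The 3 members with the smallest p among those with more calls in SCNT were V24031, with 4 SCNT calls against 0 in 58 IVF blastomeres, V176208, with 7 against 2, and V162452, with 5 against 1. None of these passed at an unadjusted 0.05.

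The comparison of SCNT 12- to 16-cell with SCNT 5- to 7-cell embryos and that of SCNT with IVF 5- to 7-cell embryos share the SCNT 5- to 7-cell embryos, so their values are given side by side only. V100540, among the members with the smallest p in the first, had a log2 ratio of 4.11 ± 1.47 (SE) there and -3.70 ± 1.48 in the second, from 24 calls in SCNT 12- to 16-cell, 1 in SCNT 5- to 7-cell and 18 in IVF 5- to 7-cell blastomeres. V97066 had 3.61 ± 1.56 and -3.71 ± 1.69, from 17, 1 and 18 calls.

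At the 2-cell stage, for which the IVF share was a threshold, the percent of calls in members had a lowest value of 0.322%, a median of 0.857% and a highest value of 1.50% in 40 SCNT embryos. In 66 IVF embryos these were 0.735%, 1.24% and 1.51%, a narrower spread. Median depth was 3410 calls in SCNT and 9785 in IVF 2-cell blastomeres. Observed calls were 0.495 times the expected number in SCNT and 0.696 times in IVF embryos. These levels follow in part from the thresholds, since the expected number was fitted with the 8-cell blastomeres that selected the members. Of the members tested, 18 (1.71%) were lower in SCNT at an unadjusted p under 0.05, beside a background of 1.78%, and 0 passed with adjustment, beside 0%. Without the blastomeres that lacked a stretch, 6 members (2.15% of those tested) were lower at an unadjusted 0.05, beside 3.87% of all regions tested. For the 8-cell stage, whose shares selected the members, 6.89% of the members were lower in SCNT with adjustment, beside 0.223% of all regions tested, and 2470 (90.0%) at an unadjusted 0.05, beside 6.15%, and nothing is read from these counts. Without the blastomeres that lacked a stretch, 1.82% of the members were lower with adjustment, beside 0.0612% of all regions tested. The IVF 3-cell embryos, 6 in number, had a median of 1.02%, and the SCNT 3-cell embryo had 0.902%.

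Read along the stages, the mean percent of calls in members was 0.836%, 0.819%, 0.874%, 0.605% and 2.76% in SCNT embryos of 2, 4, 5 to 7, 8 and 12 to 16 cells. In IVF embryos of the same stages it was 1.22%, 1.67%, 2.37%, 3.19% and 2.41%, the last over 2 embryos. The SCNT means before the 8-cell stage lay near 0.932%, the value that calls spread evenly over regions would give, and the IVF means lay above it from the 2-cell stage. The IVF 2-cell, the low SCNT 8-cell and the high IVF 8-cell mean follow in part from the thresholds. In the 6 IVF 3-cell embryos, not used for selection, the mean was 0.956%, near the even value. Their blastomeres were shallow, at a median of 4216 calls, against 9785 in IVF 2-cell and 7590 in IVF 4-cell blastomeres.

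**Figure D5:**
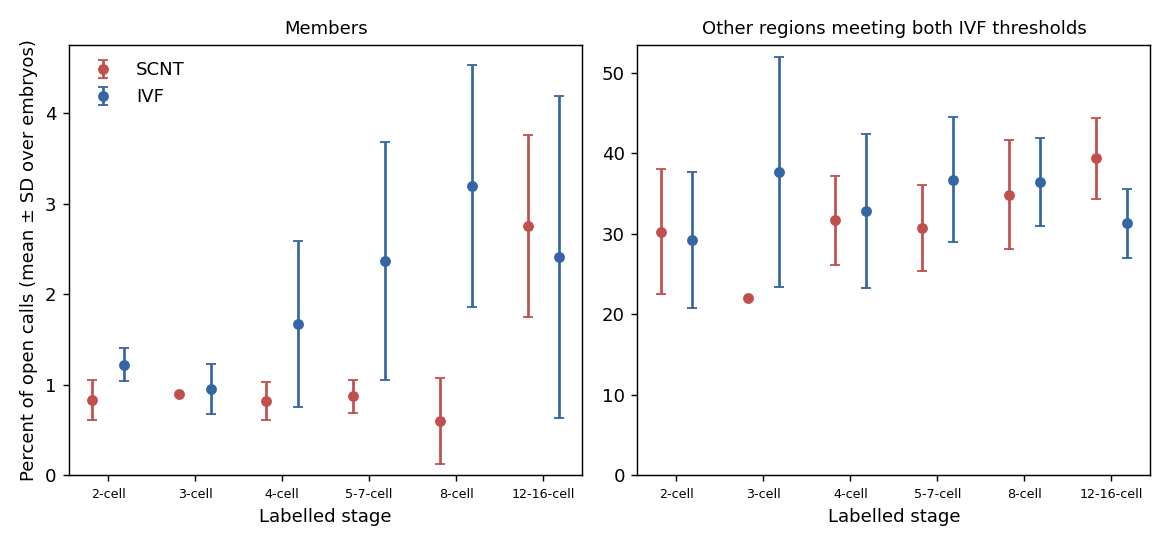
Mean percent of open calls in members (left) and in the other regions that met both IVF thresholds (right) by labelled stage, with SCNT left of IVF. Points are means over embryos and bars 1 SD, and a point without a bar is 1 embryo. The panels have different y axes, both from 0. In members the bars of the types overlap at 4 cells, just touch at 5 to 7 cells and are apart at 8 cells, with means of 0.605% in SCNT and 3.19% in IVF embryos. In the other regions they overlap at each of these stages.

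The types lay closer together in the other IVF-open regions. They took 31.7% ± 5.56 of the calls in SCNT and 32.9% ± 9.55 in IVF 4-cell embryos (SD, n = 24 and 21), and 30.7% ± 5.40 in SCNT and 36.8% ± 7.78 in IVF 5- to 7-cell embryos (SD, n = 13 and 10). At the 8-cell stage they took 34.9% ± 6.80 in SCNT and 36.5% ± 5.44 in IVF embryos. In the SCNT 12- to 16-cell embryos the value was 39.4% ± 5.01 (SD, n = 6). Since these regions had to be open in over 3% of SCNT 8-cell blastomeres, their 8-cell values also follow in part from the threshold.

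The members with the widest gap at the 8-cell stage show how far members varied in groups not used for their selection. V100164 was open in 3 SCNT and 56 IVF 8-cell blastomeres (2.07% and 54.4%), the values that put it first. At 5 to 7 cells it had 3 calls in 3 SCNT embryos and 26 calls in 7 IVF embryos, and at 12 to 16 cells 18 calls in 4 SCNT embryos. V244207, V75878 and V97066 had 1 call each in 61 SCNT blastomeres of 5 to 7 cells, against 18, 14 and 18 in IVF blastomeres, and 13, 15 and 17 calls in SCNT 12- to 16-cell blastomeres. V7682, with 42 calls in IVF and 3 in SCNT at the 8-cell stage, had 6 calls in 64 SCNT 12- to 16-cell blastomeres. That is 9.38%, beside a median of 10.9% over members in that group.

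Of the members, 1260 (45.9%) had a call in SCNT embryos of 2, 4, 5 to 7, 8 and 12 to 16 cells alike, beside 90.95% of the other IVF-open regions and 27.2% of all regions. V292706 had the most calls over the SCNT groups not used for selection, with 8 calls in 8 SCNT 2-cell embryos, 5 in 5 4-cell, 11 in 6 5- to 7-cell and 20 in all 6 12- to 16-cell embryos. In SCNT 8-cell blastomeres it had 4 calls in 4 embryos, the most that the threshold allows, and 46 in 12 IVF 8-cell embryos. V167555 had 9 calls in 9 of the 13 SCNT 5- to 7-cell embryos and 24 in all 6 SCNT 12- to 16-cell embryos, against 15 calls in 5 IVF 5- to 7-cell embryos. V98911, V116797 and V178433 had 24, 21 and 20 calls in SCNT 12- to 16-cell blastomeres.

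Most members stood alone in the region numbering, but members neighbouring each other were more frequent than members among all regions. Of the 2744, 2478 had no member as a direct neighbour, and the rest stood in pairs except for 8 runs of 3. Of the regions directly after a member 4.99% were members, beside 0.932% of all regions. The first run of 3, V4152 to V4154, had 2, 3 and 2 calls in SCNT and 19, 18 and 16 in IVF 8-cell blastomeres, but its regions did not move together elsewhere. V4153 had 8 calls in SCNT and 7 in IVF 2-cell blastomeres, and V4152 had 2 and 8. The numbering falls into 29 blocks, stretches whose regions tended to be called open together, and these held 2489 members (0.908% of their regions), from 0.470% in block 24 to 1.73% in block 10. Block 10, which holds V97066, V98911, V100164 and V100540, had 1.22 times its expected calls in IVF 8-cell and 0.951 times in SCNT 8-cell embryos, and what this uneven coverage adds to its share of members was not tested. In the segments after the blocks 1.25% of the 20400 regions were members.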

How the data were processed

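The submitters' processing notes name FastQC 0.10.1, Bowtie2 2.2.6 and bedtools. No genome build and no rule for calling regions open is given in the sources used. The authors deposited 1 table of 302830 regions by 819 blastomeres, in which every value is 0 or 1, read as a closed or open call with no depth in reads, so the number of open calls stood in for depth. Column numbers minus 0, 499, 1000 or 1500 were taken as title numbers under the 4 prefixes, and the 119 of 938 libraries without a column were not analysed here. Members and the regions named were chosen with earlier results of these data known.

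The chance p of an open call was fitted as p = 1 - exp(-ab), with a factor a per blastomere and b per region (12 iterations, blastomeres of 2 and 4 to 8 cells). Calls and expected calls were summed per embryo with at least 1000 calls. Regions with a call in at least 10% of the embryos compared were tested two-sided by a quasi-Poisson score test, with dispersion moderated in limma 3.58.1 (R 4.3.3) and the larger of this and an exact binomial p taken. P-values were Benjamini-Hochberg adjusted over all regions tested, with a threshold of 0.05. The test was tried on the real table before it was tested on simulated data. Blocks were found from correlations of bins of 100 regions, and a block was called absent under 0.1 of its expected calls. Limits from a count of 0 are 3 counts of the total, and these and the intervals cover counting error only. Python 3.11.15, NumPy 2.4.6, pandas 2.3.3, SciPy 1.17.1 and matplotlib 3.10.9 were used.

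Named regions were the 8 with the widest 8-cell gap, the 6 lower and 3 higher with the smallest p at 4 and at 5 to 7 cells, the 5 most often open in unused SCNT groups, those next to a threshold, and the first longest run. The 6 higher and 3 lower of SCNT 12- to 16-cell against 5- to 7-cell embryos were added after the values were seen. Alternatives were depth from commonly open regions, other region and embryo filters, the score test alone, no blastomeres lacking a block, single prefixes, other thresholds, thinning to 1000 calls, and embryos left out in turn.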

Additional observations from a re-analysis of the deposited data

Results flagged for a closer look

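The 16-cell embryo SCNT-111 had 0.832% of its calls in members and lay apart from the other SCNT embryos of 12 to 16 cells, which had 2.65% to 3.72%. Its gap to the nearest embryo was 0.628 of the range of the 6, above the critical value of 0.625. The embryos were pooled over cell number after their values had been seen, and it is the 1 SCNT embryo of 16 cells, so the embryo and its cell number cannot be told apart. Of 6 groups of embryos examined in this way, some sharing embryos, 1 gave such a value. Chance gives about 1 in 20 for each group and more over 6 groups, so the value is not read as beyond chance. Its 14 blastomeres had from 0.504% to 0.887% of their calls in members, at a median of 13578 calls, more than the 12150 of the group.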

How the results depend on the processing

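Of the alternative values computed, 25 moved by over 1 SD between embryos, or over 1.5 times for counts. The percent of all 2744 members lower in SCNT at an unadjusted p under 0.05 was 4.08 at the 4-cell stage. It became 6.20 with the score test alone and 0.729 with regions open in at least 25% of embryos. Of the members tested, these 2 settings gave 8.11% and 7.81%, beside 2.26% and 6.67% of all regions tested. The main setting gave 5.34% beside 1.77%, so with the 25% filter the members lay little above all regions tested. At 5 to 7 cells the 27.2% of all members became 16.2% with the 25% filter and 0.875% with 6-cell embryos only. With an IVF embryo left out it was 15.2% to 27.8%, the lowest without IVF-620. Of the members tested, the 25% filter gave 28.8%, close to the 28.95% of the main setting. The share of all regions tested rose from 3.4% to 6.16%. With 6-cell embryos only, 0.966% of the members tested were lower, beside 0.201% of all regions tested. Without IVF-620 it was 17.2% beside 2.30%. At 2 cells the 0.656% became 0.0364% with the 25% filter, which was 6.25% of 16 members tested, beside 10.5% of all regions tested. It became 0.219% without blastomeres lacking a block and 0.364% with depth from commonly open regions, beside 3.87% and 0.534% of all regions tested. At 8 cells the adjusted 6.89% became 25.0%, 1.82% and 16.98% under these 3 settings and 1.57% with no filter. The shares of all regions tested were then 2.85%, 0.0612%, 0.6675% and 0.0303%. The 25.8% higher at 12 to 16 cells became 18.8% to 30.4% with an embryo left out, beside 2.87% to 4.43% of all regions tested. With adjustment 0 members passed in these comparisons other than the 8-cell one.

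Members made up 0.347% of regions with at least 20% of IVF 8-cell blastomeres, 0.355% with at most 2% of SCNT 8-cell and 0.591% with over 5% of IVF 2-cell, against 0.932%. Relative density, the percent of calls in members divided by their percent of regions, averaged 3.02 over SCNT 12-cell embryos and 3.60 over those of 14 cells. These became 3.91 and 4.68 with the first threshold, 2.52 and 3.15 with the second, and 3.36 and 4.03 with members of the 29 blocks only. The second gave 0.634, not 0.850, in SCNT 7-cell and 0.345, not 0.650, in SCNT 8-cell embryos. The over-5% threshold gave 1.67, not 1.31, in IVF 2-cell and 1.35, not 1.09, in IVF 5-cell embryos, which had 1.53 with the 29 blocks. The over-5% threshold also took SCNT 2-, 4- and 6-cell embryos past the even value of 1, to 1.06, 1.02 and 1.07, not 0.898, 0.879 and 0.898. With an embryo left out it ran from 0.956 to 1.10, 0.856 to 0.967, 0.762 to 0.928, 2.84 to 3.21 and 3.41 to 3.72 for SCNT embryos of 5, 6, 7, 12 and 14 cells. For IVF embryos of 5 and 7 cells it ran from 0.957 to 1.23 and 2.77 to 5.01. Fewer regions or embryos enter the 25% and 6-cell settings, and for the others the cause was not tested. No paired analysis was possible because no numbers pair SCNT with IVF embryos. Depth limits these values, since most members were open in under 5% of SCNT blastomeres before the 8-cell stage.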
